A study of Mus musculus with 16 samples.

Results

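The integrated stress response (ISR) genes described here are Atf4, Ddit3, Atf3, Atf5, Trib3, Asns, Chac1, Sesn2, Cars1 and Gadd45b. These 10 genes, of 55266 in the annotation matched to the deposited tables, were chosen by name as stress response genes regarded as sensitive to nonsense-mediated RNA decay (NMD). All of their transcripts in the tables were used, which gave 38 of 142435 transcripts. Levels were read per transcript and as the sum per gene, and all 10 genes passed the filter on low counts in both tissues. RNA was measured by bulk RNA-seq in whole frontal cortex (FC) and whole cerebellum (Cere) of adult Upf3b-KO mice, which lack the X-linked NMD factor Upf3b in all cells, and of littermate Ctrl mice. The 4 groups FC Ctrl, FC Upf3b-KO, Cere Ctrl and Cere Upf3b-KO had 4 libraries each, and Cere Upf3b-KO replicate 1 was left out because it held 64981 counts. No stressor or drug is mentioned for the mice, and their sex and exact age are not given in the sources used here. In whole tissue, fewer cells of a type and less RNA per cell cannot be told apart.

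The ISR starts when one of several kinases phosphorylates the translation factor eIF2, which lowers protein synthesis in general but raises translation of a few messenger RNAs with upstream reading frames. ATF4 is the best known of these. As a transcription factor, it switches on genes for amino acid supply, redox balance and, when stress persists, cell death. Upstream open reading frames (uORFs) start in the leader before the main frame and end either before it or inside it, and a ribosome that stops early can trigger NMD, which is why several ISR messenger RNAs are discussed as NMD substrates.

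Sequences of the main transcripts showed which members carry such frames. The transcript with the highest mean level of each gene was read from the GRCm39 annotation, and every ATG in its 5′ leader was followed to its stop codon. At least 1 upstream ATG was present in 6 of the 10 members, against 62.3% of 14787 expressed genes with a complete coding transcript. The study counts a uORF only if it has at least 30 nt, a favourable start context and no overlap with the main frame, and the context was read here as a purine at -3 or G at +4, where the A of the ATG is +1. Such a uORF was present in 5 of the 10 members (Atf4, Ddit3, Atf3, Asns and Sesn2), against 35.5% of all such genes. That of Atf3 was read from Atf3-201, which held 19.4% of Atf3 counts in FC Ctrl and 67.7% in Cere Ctrl. Atf3-203 held 74.3% and 27.7%, and its main frame starts at base 180, so it cannot hold the ATG at -183. Atf4 and Atf5 were the 2 members with an upstream frame in a purine or G context that ran out of frame into the main frame, a feature of 11.9% of all genes. Trib3, Chac1, Cars1 and Gadd45b had no ATG in the leader of their main transcript.

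The upstream starts of the 4 transcription factors are printed because these frames are the feature by which the messenger RNAs are discussed as NMD substrates. Each line gives 21 bases of the transcript, with the upstream ATG in capitals. The number in the name is the distance in nt from the A of the main start codon to that of the upstream ATG.
Atf4 at -475: ttttctctcATGgggccttta
Atf4 at -196: gcggccaccATGgcgtattag
Atf4 at -97: gcctaagccATGgcgctcttc
Ddit3 at -131: gattatatcATGttgaagatg
Ddit3 at -122: atgttgaagATGagcgggtgg
Atf3 at -183: aaaggggtgATGcaacgcgct
Atf5 at -252: gcccgcgcaATGgctctgtag
Atf5 at -121: ttcgccgccATGgagtcctcc
On GRCm39 the Atf4 windows lay on the plus strand at chr15:80139495-80139515, chr15:80139774-80139794 and chr15:80139873-80140414, the last of which spans an intron. Those of Ddit3 lay on the plus strand at chr10:127126689-127126709 and chr10:127126698-127126718. The Atf3 window lay on the minus strand at chr1:190915457-190915477, and those of Atf5 on the minus strand at chr7:44465950-44465970 and, across an intron, chr7:44464700-44465839. All are in 5′ untranslated exon sequence.

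The main transcripts Atf4-201 and Atf5-201 shared the same layout. In both, a frame of 3 codons was followed by a longer frame, of 59 codons in Atf4 and 58 codons in Atf5, that ended inside the main coding sequence. Atf5-202, which was not read for upstream frames, held 50.3% of Atf5 counts in FC Upf3b-KO and 42.5% in Cere Ctrl. It starts at chr7:44465106 on the minus strand, downstream of the ATG at -252, and so lacks the short frame. Atf4 had a further uORF of 36 codons at -475. Ddit3 had nested uORFs of 34 and 31 codons that shared a stop codon 26 nt before the main start. The uORF of Atf3 had 25 codons, that of Sesn2 had 22 codons, and Asns had 7 upstream ATGs, of which 3 opened a uORF by the study definition.

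**Figure D1:**
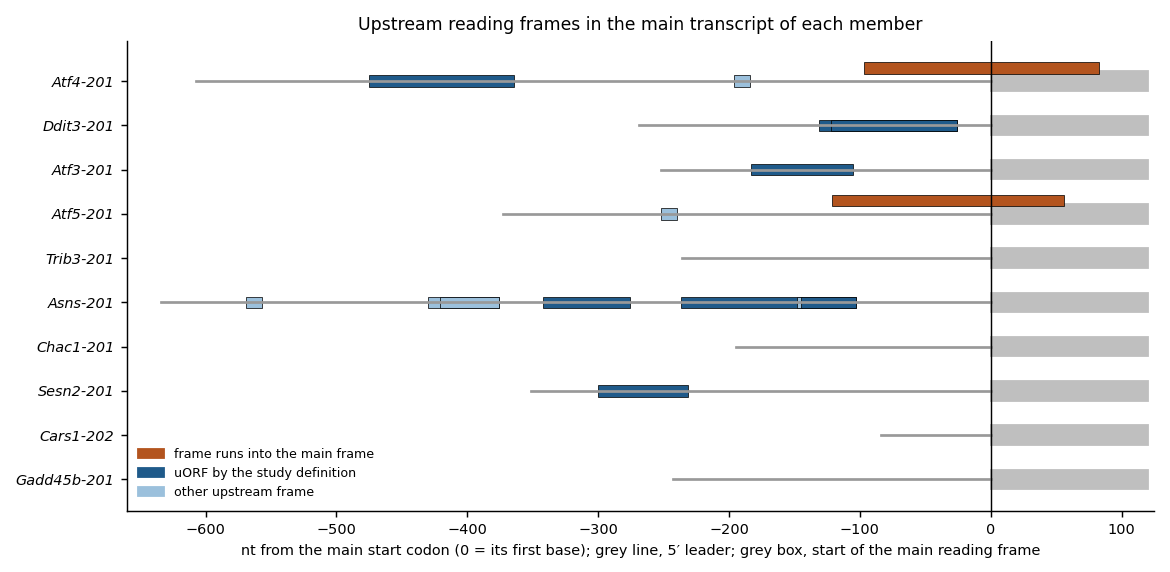
Upstream reading frames in the main transcript of the 10 members, drawn to scale in nt from the main start codon. The frames at -97 in Atf4 and -121 in Atf5 cross the main start, while the 2 nested frames of Ddit3 stop 26 nt before it.

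The other NMD feature considered, an exon junction at least 50 nt downstream of the stop codon (dEJ), was absent from the main transcript of all 10 members. One of the 38 member transcripts carried a dEJ, Cars1-211, which the annotation types as a nonsense-mediated decay transcript. Its highest group mean was 0.219 CPM (counts per 1000000 counts of the library), and it did not pass the filter. Of the 38 transcripts, 22 are annotated as protein coding, 10 as retained intron and 5 without a coding sequence.

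Promoters were searched for TGATGNAA on both strands, the core of the element bound by ATF4 with a C/EBP partner, from 250 bases before to 50 bases after the start of the main transcript. Matches were found in 4 of the 10 members and in 2.97% of 19248 promoters of expressed genes. They are printed, with the motif in capitals, because several members are textbook targets of ATF4. The number in the name is the distance of the motif from the transcript start.
Ddit3 at -199: gggcggggaTGATGCAAtgtttggca
Atf3 at -103: cggacttggTGATGCAAgtgcgagaa
Chac1 at -159: tggcaggagTGATGCAAcggcaggga
Cars1 at 27: tccagaatcTGATGCAAccgcggcgc
On GRCm39 these windows lie at chr10:127126352-127126377 (printed from the minus strand), chr1:190915624-190915649 (plus strand), chr2:119181521-119181546 (minus strand) and chr7:143153784-143153809 (plus strand), in each case the strand opposite to the gene. A match describes letters and was not a measurement of binding, and its absence from the other 6 windows says nothing about binding of the factor there.

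The 15 libraries used held 27660078 to 35238677 counts, so that 3 counts corresponded to 0.0851 to 0.108 CPM. Upf3b averaged 14.8 ± 0.64 CPM in FC Ctrl (SD, n = 4) and 0.559 ± 0.26 CPM in FC Upf3b-KO (n = 4). In the cerebellum it averaged 22.7 ± 1.23 CPM in Ctrl (n = 4) and 0.737 ± 0.20 CPM in Upf3b-KO (n = 3), so the libraries carried the genotypes of their labels. Libraries of a group were very alike, with a common coefficient of variation of 3.53% to 4.08%. The study describes both regions as taken from 4 mice per genotype, so libraries of the 2 regions share mice. The labels do not say which mouse gave which library, so p-values measure the spread between these libraries, which may be technical, and tests across the regions treat libraries of 1 mouse as independent. With so small a spread, 53.3% of all genes passed the genotype test in the frontal cortex and 64.4% in the cerebellum, which is the background for every count below.

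Marker genes of other cell types and of neighbouring tissue also differed between the genotypes. The tissue labels held, since summed cortical neuron markers were at 1552 to 1615 CPM in FC Ctrl and 460 to 482 CPM in Cere Ctrl, and cerebellar neuron markers at 29.4 to 33.1 CPM and 3721 to 3749 CPM. All 7 choroid plexus markers were higher in Upf3b-KO in both tissues, and their sum went from 20.4 to 21.6 CPM in FC Ctrl to 2170 to 2222 CPM in FC Upf3b-KO, and from 32.4 to 36.7 CPM to 1388 to 1409 CPM in the cerebellum. In the frontal cortex all 6 striatal neuron markers rose, with sums of 128 to 138 CPM in Ctrl and 679 to 689 CPM in Upf3b-KO. In the cerebellum 3 striatal neuron markers rose and 1 fell, with sums of 368 to 380.0 CPM in Ctrl and 315 to 326 CPM in Upf3b-KO. All 6 cerebellar neuron markers fell there, with sums of 3721 to 3749 CPM in Ctrl and 1889 to 1900 CPM in Upf3b-KO. All 5 oligodendrocyte markers rose in both tissues, from 5715 to 5807 CPM to 13688 to 13786 CPM in the cerebellum and from 7118 to 7181 CPM to 9694 to 9757 CPM in the frontal cortex. No marker of the choroid plexus, striatal neuron, cerebellar neuron or oligodendrocyte lists was at 0 in a group. The part of these tissue differences in the values of the members was not tested, and as they differ between the same groups as the genotype, the effects of both cannot be told apart.

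**Figure D2:**
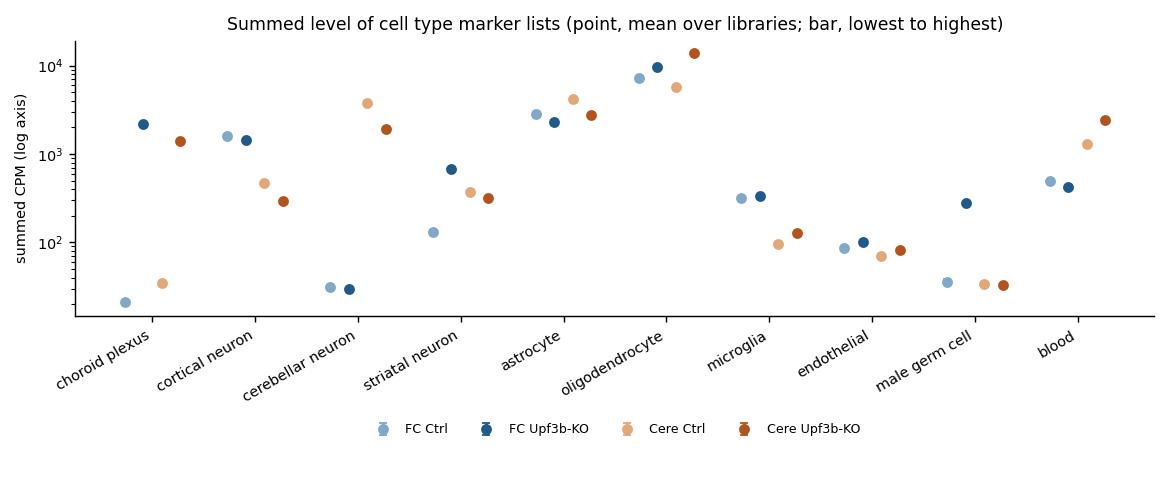
Summed CPM of 10 lists of marker genes on a log axis, as the mean (point) and the lowest to highest library (bar, mostly shorter than the point) of each group. Choroid plexus markers separate the genotypes most, with sums of 20.9 and 2186 CPM in FC Ctrl and FC Upf3b-KO.

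Members differed widely in level. Per kilobase of transcript, on the scale of CPM per kb, the order in FC Ctrl was Atf4 (33.2 ± 0.69, SD, n = 4), Asns (25 ± 0.82), Ddit3 (16.9 ± 0.66), Cars1 (6.55 ± 0.28), Gadd45b (5.76 ± 0.34), Sesn2 (5.07 ± 0.33), Chac1 (3.77 ± 0.39), Atf5 (2.06 ± 0.20), Trib3 (0.453 ± 0.085) and Atf3 (0.447 ± 0.14). Libraries overlapped between the neighbours Cars1 and Gadd45b, Gadd45b and Sesn2, and Trib3 and Atf3. In Cere Ctrl the first 3 were in the same order, at 46.1 ± 0.88, 34.1 ± 0.52 and 19.8 ± 2.42 CPM per kb, and Sesn2 came next at 12.4 ± 0.28. Trib3 and Atf3 were the lowest in both tissues.

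The comparison of the 2 regions in Ctrl mice asks where these genes are higher in mice that have Upf3b. By the quasi-likelihood test of edgeR, with p-values adjusted after Benjamini and Hochberg, 8 of the 10 members were higher in the cerebellum and 0 were lower, where 35.8% of 19831 genes were higher and 37.3% were lower. Trib3 differed most, with a log2 fold change of 1.63 ± 0.24 (SE), followed by Atf3 (1.39 ± 0.29), Sesn2 (1.26 ± 0.05) and Chac1 (0.64 ± 0.10). Atf4 (0.45 ± 0.03), Asns (0.43 ± 0.02), Cars1 (0.32 ± 0.04) and Ddit3 (0.24 ± 0.08) were also higher, and adjusted p was 0.00564 or less for all 8. Atf5 (0.08 ± 0.14) and Gadd45b (-0.06 ± 0.10) did not pass. CPM of the Ctrl groups did not overlap for 7 of the 10 members, against 66.5% of all genes. Against a 1.2-fold change 6 of the 10 passed (54.3% of genes), all higher (25.2%) and 0 lower (29.1%), and 3 passed at an adjusted p under 0.01 with a fold over 2 (25.5%).

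Between Upf3b-KO and Ctrl, some members were higher and others lower. In the frontal cortex 5 of 10 passed the genotype test, against 53.3% of all 18218 genes, with 2 higher (28% of genes) and 3 lower (25.3%). In the cerebellum 8 of 10 passed, against 64.4% of 17785 genes, with 3 higher (33.1%) and 5 lower (31.3%). Atf4 and Ddit3 were higher and Asns, Chac1 and Sesn2 were lower in both tissues, while Trib3 and Atf3 fell in the cerebellum and did not pass in the frontal cortex. With 10 members, neither count is far from its background share. At the stricter threshold of the study (adjusted p under 0.01, fold over 2), 0 members passed in the frontal cortex (10.2% of genes) and 3 in the cerebellum (13.2%), all lower. Against a 1.2-fold change 4 passed in the frontal cortex (21.4% of genes), of which Ddit3 was higher (15.1%) and Asns, Chac1 and Sesn2 were lower (6.27%). In the cerebellum 5 passed (36.8%), 0 higher (20.7%) and 5 lower (16.1%). The median log2 fold change of the 10 was -0.16 in the frontal cortex and -0.33 in the cerebellum, against 0.00 and 0.01 over all genes.

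**Figure D3:**
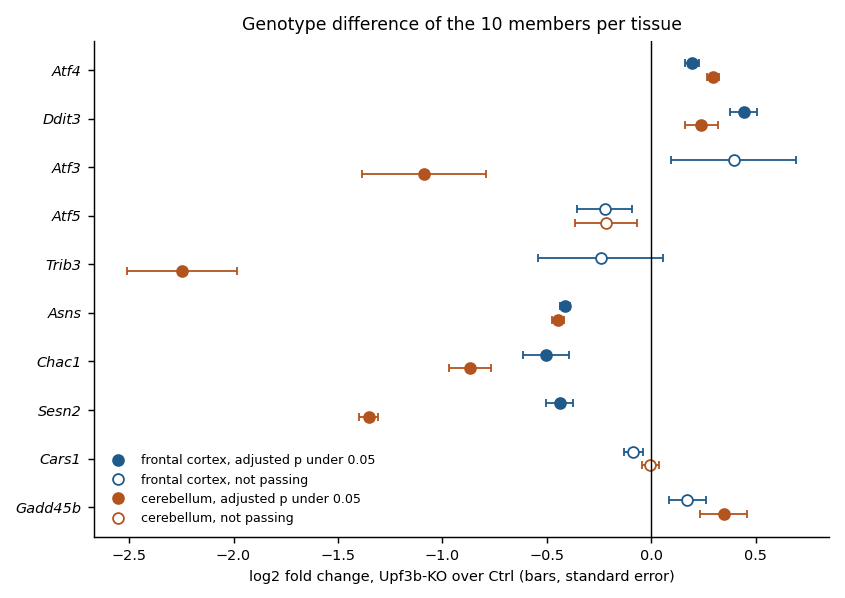
Log2 fold change of Upf3b-KO over Ctrl with its standard error for the 10 members, in the frontal cortex (blue) and the cerebellum (orange); filled points had an adjusted p under 0.05. Atf4 and Ddit3 lie right of 0 in both tissues and Asns, Chac1 and Sesn2 left of it, with Trib3 at -2.24 in the cerebellum.

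Atf4 (chr15:80139372-80141745, plus strand, GRCm39) encodes the transcription factor at the centre of the pathway. It was at 57.6, 56.6, 57.6 and 59.5 CPM in FC Ctrl and at 69.3, 70.2, 73.1 and 66.2 CPM in FC Upf3b-KO. Cerebellar libraries had 78.4, 82.2, 80.6 and 80.3 CPM in Ctrl and 105.4, 101.2 and 100.2 CPM in Upf3b-KO. Every Upf3b-KO library was above every Ctrl library of its tissue. The log2 fold change was 0.19 ± 0.03 in the frontal cortex (edgeR adjusted p = 3.26e-05) and 0.30 ± 0.03 in the cerebellum (adjusted p = 3.82e-08). These changes were small, 14.4% and 22.8%, and neither passed a test against a 1.2-fold change. Among genes, the frontal cortex change was near the middle, as 48.7% of all genes had a smaller absolute change. The fold changes use TMM scaling (trimmed mean of M values), which lowered them by 0.08 in the frontal cortex and 0.05 in the cerebellum (log2) relative to ratios of CPM.

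Ddit3 (chr10:127124268-127132163, plus strand) encodes CHOP, a factor that promotes cell death when stress persists. FC Ctrl libraries had 16.4, 15.1, 15.4 and 15.7 CPM and FC Upf3b-KO libraries 22.2, 22.7, 24.8 and 19.9 CPM. In the cerebellum the values were 20.5, 17.7, 16.1 and 21.2 CPM in Ctrl and 24.2, 22 and 23 CPM in Upf3b-KO. Groups did not overlap in either tissue, though the cerebellar gap was narrow. The log2 fold change was 0.44 ± 0.06 in the frontal cortex (edgeR adjusted p = 5.14e-06) and 0.24 ± 0.08 in the cerebellum (adjusted p = 0.0123), and the second call was lost without Cere Upf3b-KO replicate 2 (adjusted p = 0.0612). Ddit3 shares 74 exonic bases with Mars1, a methionyl-tRNA synthetase gene on the opposite strand at 64.6 CPM, and whether reads were counted by strand is not stated. Mars1 had a log2 fold change of -0.07 ± 0.04 in the frontal cortex and -0.37 ± 0.03 in the cerebellum, and the share of its reads in the Ddit3 values was not tested.

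Atf3 (chr1:190902493-190950241, minus strand) encodes a stress-induced factor that is also made after neuronal injury. It was low, with 0.690, 0.637, 1.01 and 0.590 CPM in FC Ctrl and 0.863, 1.40, 0.758 and 1.05 CPM in FC Upf3b-KO, which overlapped. In the cerebellum it was at 2.26, 1.59, 2.01 and 2.02 CPM in Ctrl and at 0.977, 1.45 and 0.441 CPM in Upf3b-KO. All 3 Upf3b-KO libraries were below the Ctrl libraries there. The cerebellar log2 fold change was -1.09 ± 0.30 (edgeR adjusted p = 0.00353), and that of the frontal cortex was 0.39 ± 0.30 (adjusted p = 0.285). Without 1 library they were -1.54 to -0.74 and 0.20 to 0.59, and the cerebellar call was kept in all 7 fits.

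Atf5 (chr7:44461680-44466082, minus strand), an ATF4 relative whose translation is controlled in the same way, did not pass in either tissue. It ranged from 3.21 to 4.13 CPM in FC Ctrl, 2.98 to 3.82 CPM in FC Upf3b-KO, 3.33 to 4.82 CPM in Cere Ctrl and 3.06 to 3.91 CPM in Cere Upf3b-KO, and the groups overlapped. Its log2 fold changes were -0.22 ± 0.13 and -0.22 ± 0.15. Exons of Atf5 share 82 bases with Nup62 and Il4i1 on the opposite strand.

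**Figure D4:**
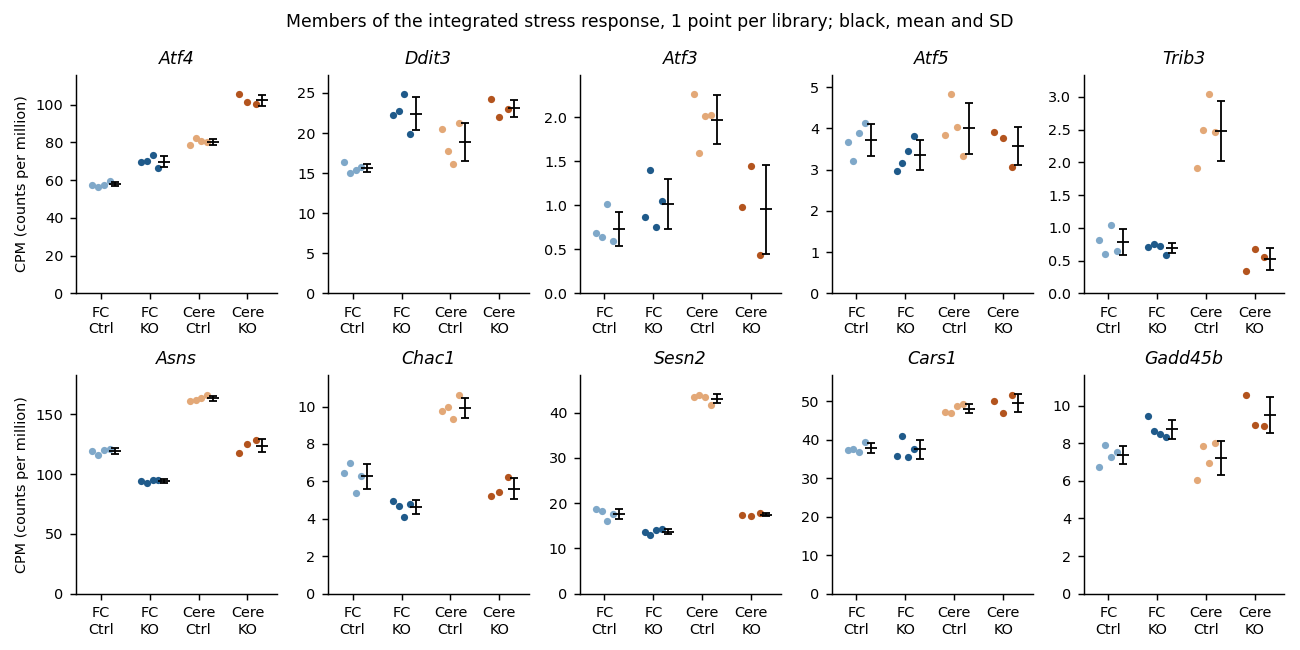
CPM of the 10 members in each of the 15 libraries, with the mean and SD in black, for FC Ctrl, FC Upf3b-KO, Cere Ctrl and Cere Upf3b-KO (KO in the labels). Sesn2 falls from 43.1 to 17.5 CPM in the cerebellum, close to the 17.7 CPM of FC Ctrl, while Atf4 is higher in Upf3b-KO in both tissues.

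Among the feedback and effector genes, Trib3 and Sesn2 had the largest decreases in the cerebellum. Trib3 (chr2:152179337-152191958, minus strand) encodes a pseudokinase that ATF4 and CHOP induce and that in turn restrains ATF4. Cere Ctrl libraries had 1.91, 2.5, 3.04 and 2.46 CPM and Cere Upf3b-KO libraries 0.349, 0.681 and 0.558 CPM. The groups were far apart, with a log2 fold change of -2.24 ± 0.26 (edgeR adjusted p = 4.34e-07) from a mean of 77.8 and 17.7 counts per library. In the frontal cortex it was at 0.811, 0.606, 1.04 and 0.652 CPM in Ctrl and 0.715, 0.751, 0.725 and 0.586 CPM in Upf3b-KO, which overlapped (log2 -0.24 ± 0.30, adjusted p = 0.525, and log2 -0.35 to -0.07 without 1 library).

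Sesn2 (chr4:132219335-132237815, minus strand) encodes sestrin 2, a leucine sensor that restrains the growth kinase mTORC1. It was at 43.4, 44, 43.4 and 41.7 CPM in Cere Ctrl and at 17.4, 17.3 and 17.8 CPM in Cere Upf3b-KO. FC Ctrl libraries had 18.8, 18.2, 16.1 and 17.6 CPM and FC Upf3b-KO libraries 13.6, 12.9, 14.1 and 14.2 CPM. Upf3b-KO libraries were lower than all Ctrl libraries in both tissues. The log2 fold change was -1.35 ± 0.05 in the cerebellum (edgeR adjusted p = 4.44e-15) and -0.44 ± 0.07 in the frontal cortex (adjusted p = 6.49e-06).

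Chac1 (chr2:119180757-119184866, plus strand) encodes an enzyme that degrades glutathione. It was at 6.42, 6.97, 5.39 and 6.27 CPM in FC Ctrl and 4.97, 4.67, 4.12 and 4.81 CPM in FC Upf3b-KO. In the cerebellum the libraries had 9.78, 9.97, 9.31 and 10.6 CPM in Ctrl and 5.20, 5.42 and 6.23 CPM in Upf3b-KO. No Upf3b-KO library reached the Ctrl range. Log2 fold changes were -0.51 ± 0.11 (edgeR adjusted p = 0.000579) and -0.87 ± 0.10 (adjusted p = 4.63e-07).

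Asns (chr6:7671667-7728461, minus strand), asparagine synthetase, is a classic ATF4 target and had the highest CPM of the 10. Libraries ranged from 116 to 121 CPM in FC Ctrl, 92.4 to 95.5 CPM in FC Upf3b-KO, 161 to 166 CPM in Cere Ctrl and 118 to 128 CPM in Cere Upf3b-KO. It fell by similar amounts in both tissues, with log2 fold changes of -0.42 ± 0.02 (edgeR adjusted p = 3.63e-12) and -0.45 ± 0.03 (adjusted p = 3.94e-11). Asns, with Chac1 and Sesn2, also passed against a 1.2-fold change in both tissues.

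Cars1 (chr7:143107440-143153828, minus strand), cysteinyl-tRNA synthetase, did not pass in either tissue (log2 -0.09 ± 0.05 and 0.00 ± 0.04), but passed as lower in the frontal cortex without FC Upf3b-KO replicate 2 (log2 -0.13, adjusted p = 0.0148). Its libraries ranged from 36.8 to 39.5 CPM in FC Ctrl, 35.6 to 41.0 CPM in FC Upf3b-KO, 47.0 to 49.2 CPM in Cere Ctrl and 47.1 to 51.7 CPM in Cere Upf3b-KO. Gadd45b (chr10:80764523-80768038, plus strand), a growth arrest and DNA damage gene also induced by neuronal activity, ranged from 6.75 to 7.91 CPM in FC Ctrl and 8.32 to 9.47 CPM in FC Upf3b-KO. Cerebellar libraries ranged from 6.05 to 7.99 CPM in Ctrl and from 8.90 to 10.6 CPM in Upf3b-KO. Its groups did not overlap in either tissue, but the test passed only in the cerebellum (log2 0.35 ± 0.11, edgeR adjusted p = 0.0114), and that call was lost without Cere Upf3b-KO replicate 2 (adjusted p = 0.0757). In the frontal cortex the log2 fold change was 0.17 ± 0.09 (adjusted p = 0.11). Over the 10 members, CPM of the genotypes did not overlap for 6 in the frontal cortex (48.4% of all genes) and 8 in the cerebellum (63.4%).

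The difference of the genotype effects between the tissues was tested as an interaction over the 15 libraries, without a term for the mice that both regions share. It passed for 4 of the 10 members, against 48% of 19831 genes, and in all 4 the cerebellar effect was the more negative (23.8% of genes). The same 4 had the largest log2 fold changes of Cere Ctrl over FC Ctrl. Both comparisons use the same Ctrl libraries, so their results are not independent. The interaction was -2.02 ± 0.38 (log2) for Trib3 (edgeR adjusted p = 8.62e-05), -1.49 ± 0.43 for Atf3 (adjusted p = 0.00545), -0.92 ± 0.08 for Sesn2 (adjusted p = 1.45e-10) and -0.37 ± 0.15 for Chac1 (adjusted p = 0.0425). At the threshold of the study Trib3 and Atf3 passed (9.4% of genes). Against a 1.2-fold change Trib3, Atf3 and Sesn2 passed (26.6%), all in the negative direction (12.3%) and 0 in the positive (14.3%). The Chac1 call was lost in 9 of the 15 fits that left out 1 library (adjusted p of 0.0574 to 0.142), with the replicate block (adjusted p = 0.0908) and with no filter on low counts (adjusted p = 0.157). Beside these 4, cerebellar neuron markers fell in 6 of 6 in the cerebellum, while 3 of the 6 were tested in the frontal cortex, where 1 rose and 1 fell. For Atf4 the interaction was 0.09 ± 0.04 (adjusted p = 0.0876), for Ddit3 -0.21 ± 0.11 (adjusted p = 0.109) and for Asns -0.04 ± 0.04 (adjusted p = 0.36). Leaving out 1 library gave 3 to 5 calls. Atf4 passed, in the positive direction, without FC Upf3b-KO replicate 3 (0.11, adjusted p = 0.0376), without Cere Upf3b-KO replicate 4 (0.13, adjusted p = 0.0319) and with no filter (0.12, adjusted p = 0.034). Ddit3 passed without FC Upf3b-KO replicate 4 (-0.27, adjusted p = 0.0377) and without Cere Ctrl replicate 3 (-0.28, adjusted p = 0.0239).

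Per transcript, 16 of the 38 member transcripts were tested in the frontal cortex and 17 in the cerebellum. In edgeR's test 5 of the 16 passed in the frontal cortex (16.4% of 42318 transcripts) and 5 of the 17 in the cerebellum (22.6% of 44388), all protein coding. In the frontal cortex 2 were higher (8.67%) and 3 lower (7.68%), and in the cerebellum 1 was higher (12.3%) and 4 were lower (10.3%). With DESeq2, 4 were higher and 4 lower in the cerebellum, with Ddit3-201 (log2 0.34, adjusted p = 0.0262) and Gadd45b-201 (log2 0.40, adjusted p = 0.0179) among the higher. With a fold over 2 and an adjusted p under 0.01, 0 passed in the frontal cortex (3.22%) and 2 in the cerebellum (4.76%). Atf4-201, which held 98.5% of the Atf4 counts in FC Ctrl and 99.1% in FC Upf3b-KO, rose in both tissues (log2 0.21 and 0.34). With the library of 64981 counts added, the cerebellar calls of Atf4-201 (log2 0.30, adjusted p = 0.152) and Chac1-201 (log2 -0.87, adjusted p = 0.0556) were lost. Asns-201, Sesn2-201 and Chac1-201, each with nearly all counts of its gene, fell in both, although the Chac1-201 call in the frontal cortex was lost in 7 of the 8 fits that left out 1 library. Trib3-201 fell in the cerebellum (log2 -2.21). None of the 3 tested retained-intron transcripts passed.

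Ddit3-201 rose in the frontal cortex (log2 0.62), where the means were 12.5 ± 0.75 CPM in Ctrl and 20.1 ± 1.31 CPM in Upf3b-KO (SD, n = 4). Its share of Ddit3 counts was 80.0% ± 4.35 in FC Ctrl and 89.8% ± 2.38 in FC Upf3b-KO. The retained-intron transcript Ddit3-202 was at 1.74 and 1.59 CPM in the same groups and did not pass. A test of isoform usage, which asks whether a transcript moved relative to the others of its gene (edgeR diffSpliceDGE), passed for 0 of 10 member transcripts in the frontal cortex (0.86% of all) and 0 of 12 in the cerebellum (1.25%). For Atf3 and Atf5 the shares of the transcripts varied widely between libraries of a group, and Atf5-201 held 82.1% ± 25 of Atf5 counts in FC Ctrl and 48.0% ± 29.7 in FC Upf3b-KO.

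The wider pathway was read from lists of genes with the same tests. Over 69 tested genes of the ISR lists beyond the members, 16 rose and 31 fell in the frontal cortex, where 28% of all genes rose and 25.3% fell. In the cerebellum 15 rose and 35 fell, against 33.1% and 31.3% of all genes. Medians were -0.07 and -0.14 (log2), against 0.00 and 0.01 over all genes. The shares over all genes are the background for the list counts below.

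Upstream of ATF4, the 12 genes for the eIF2 kinases, eIF2 and its exchange factor eIF2B were split, with 2 higher and 4 lower in the frontal cortex and 4 higher and 4 lower in the cerebellum. The largest change was in Eif2ak2, the kinase PKR, which senses double-stranded RNA, with 7.35 and 11.0 CPM in FC Ctrl and Upf3b-KO and 8.37 and 13.1 CPM in the cerebellum (log2 0.50 ± 0.09 and 0.59 ± 0.09). Eif2s3x, an eIF2 subunit (log2 -0.23 and -0.11), and Eif2ak1, the heme-regulated kinase (-0.11 and -0.16), fell in both tissues. Eif2b2, an eIF2B subunit, rose in the cerebellum (0.44) and did not pass in the frontal cortex (0.10). The 3 genes of the eIF2 phosphatase, Ppp1r15a, Ppp1r15b and Ppp1ca, rose in the frontal cortex and fell in the cerebellum. Ppp1r15a, which encodes the stress-induced subunit GADD34, had log2 fold changes of 0.21 ± 0.06 and -0.22 ± 0.05. The interaction passed for all 3 genes, at -0.44, -0.33 and -0.41 (log2), against 23.8% of all genes in that direction.

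Among genes for serine and one-carbon metabolism, 1 rose and 5 of 9 fell in the frontal cortex and 1 rose and 7 fell in the cerebellum. Phgdh, the first enzyme of serine synthesis, fell in both (log2 -0.38 ± 0.03 and -0.34 ± 0.03), while Psph, the last enzyme, had -0.16 ± 0.05 and -0.62 ± 0.05. Shmt2, which passes the carbon of serine to folate in mitochondria, and Aldh18a1, a proline synthesis enzyme, fell in the cerebellum (-0.58 and -0.31) and did not pass in the frontal cortex (0.13 and -0.10). Astrocyte markers fell in 5 of 5 in the frontal cortex (sums of 2837 to 2875 CPM in Ctrl and 2256 to 2283 CPM in Upf3b-KO) and in 4 of 5 in the cerebellum (4169 to 4222 CPM and 2732 to 2753 CPM), and their part was not tested. The cerebellar sum followed 1 marker, the glutamate transporter gene Slc1a3 (2755 and 1297 CPM, log2 -1.14), while Aqp4 (-0.13), Gja1 (-0.08) and Aldh1l1 (-0.22) fell less and Gfap rose (0.41), so that the median of the 5 was -0.13. Their median in the frontal cortex was -0.37. The 9 serine and one-carbon genes had medians of -0.11 in the frontal cortex and -0.31 in the cerebellum.

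Of 9 amino acid transporter genes, 2 rose and 6 fell in the frontal cortex and 3 rose and 4 fell in the cerebellum. Slc7a5, a large neutral amino acid transporter, fell in both tissues (log2 -0.53 ± 0.03 and -0.82 ± 0.03). Slc6a9, the glycine transporter GlyT1, rose in both (0.74 ± 0.05 and 0.90 ± 0.02). Slc7a11, the cystine transporter, fell in the frontal cortex (-0.45 ± 0.03) and rose in the cerebellum (0.28 ± 0.06), as did Slc1a4, a neutral amino acid transporter (-0.19 ± 0.03 and 0.55 ± 0.04).

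The tRNA synthetase list, with 18 genes, had 3 higher and 8 lower genes in the frontal cortex and 4 and 8 in the cerebellum, none over 2-fold. It includes Xpot, a tRNA export gene and not a synthetase, which was among the lower genes in both tissues (log2 -0.21 and -0.23). Lars1 for leucine fell in both tissues (log2 -0.18 and -0.46), and Nars1 for asparagine fell in the frontal cortex (-0.04) and rose in the cerebellum (0.24). Of 14 other ATF4 targets 12 were tested, and of these 3 rose and 5 fell in the frontal cortex and 3 rose and 6 fell in the cerebellum. Fgf21 and Gdf15 did not pass the filter on low counts, with highest group means of 0.298 and 0.372 CPM, both in Cere Ctrl. Stc2, a secreted stress-induced glycoprotein, fell in the cerebellum from 4.48 to 1.21 CPM (log2 -1.94 ± 0.18). Tnfrsf10b, the death receptor induced by CHOP, rose in both tissues, from 0.301 to 3.23 CPM in the frontal cortex and from 0.448 to 2.75 CPM in the cerebellum (log2 3.33 ± 0.27 and 2.58 ± 0.28). Vldlr, a lipoprotein receptor, rose in the frontal cortex (0.14 ± 0.03) and fell in the cerebellum (-0.57 ± 0.02), while Sqstm1, the autophagy receptor p62, fell (-0.14 ± 0.02) and rose (0.23 ± 0.02). Of 6 partners of ATF4, 2 rose and 3 fell in the frontal cortex and 0 rose and 3 fell in the cerebellum, and Nupr1, a small stress-induced chromatin protein, rose in the former (log2 0.48 ± 0.08) and fell in the latter (-0.75 ± 0.11). Nfe2l2, the antioxidant factor NRF2, fell in both (-0.16 and -0.25). Jdp2 rose in the frontal cortex (0.38, against 0.08 in the cerebellum), and Cebpg fell in the cerebellum (-0.31, against -0.03 in the frontal cortex).

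The other branches of the unfolded protein response add chaperones and folding enzymes to the endoplasmic reticulum. Of 15 genes, 9 rose and 2 fell in the frontal cortex and 9 rose and 4 fell in the cerebellum, with medians of 0.15 and 0.12 (log2). Hspa5, the chaperone BiP, rose in both (0.30 ± 0.02 and 0.21 ± 0.02), as did Hsp90b1 (0.14 ± 0.02 and 0.26 ± 0.02) and Pdia4, a disulfide isomerase (0.35 ± 0.03 and 0.36 ± 0.03). Dnajc3, a co-chaperone that inhibits eIF2 kinases, rose in the frontal cortex (0.30 ± 0.03) and fell in the cerebellum (-0.13 ± 0.03), with an interaction of -0.45. The 4 genes that fell in the cerebellum were Dnajc3 and, named after their values were seen, the stress sensors Atf6 (-0.36) and Ern1 (-0.43) and the transcription factor gene Xbp1 (-0.18). Choroid plexus markers rose in the same libraries, and their part was not tested.

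**Figure D5:**
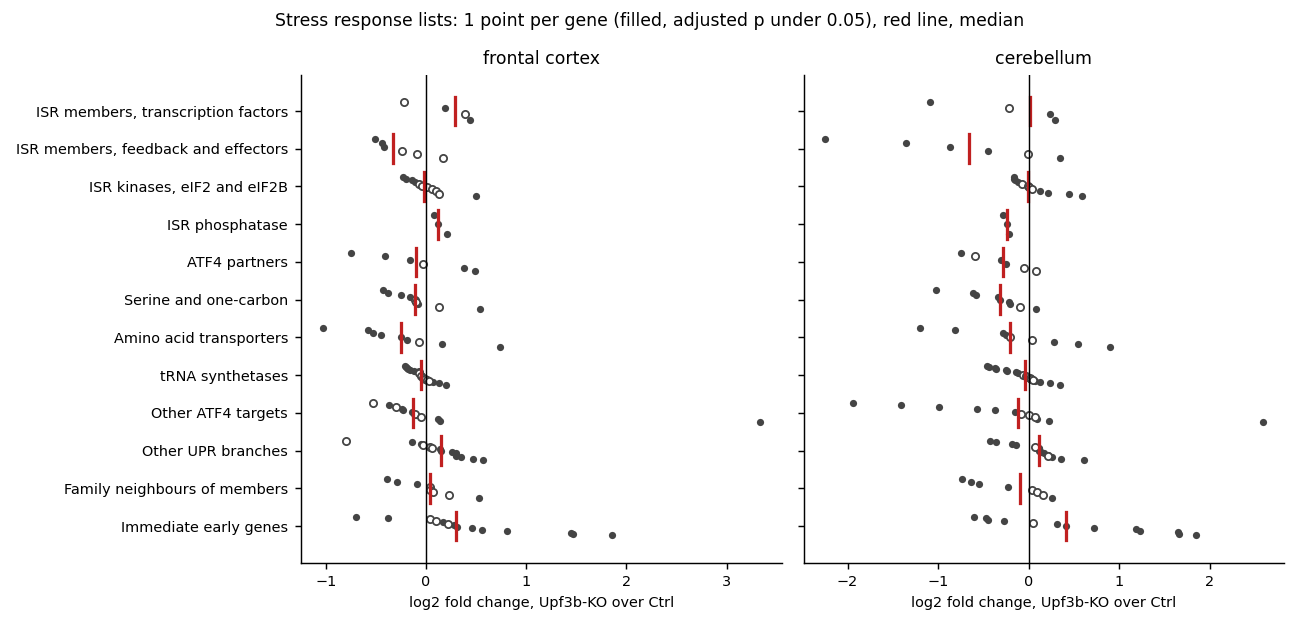
Log2 fold change of Upf3b-KO over Ctrl for each gene of the ISR lists in the frontal cortex (left) and the cerebellum (right), with filled points for an adjusted p under 0.05 and a red line at the median. The effector members have medians of -0.33 and -0.66, and the 3 phosphatase genes lie right of 0 in the frontal cortex and left of it in the cerebellum.

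Across the 15 libraries, the genes whose log2(CPM + 1) was most like that of Atf4, out of 15226 whose mean reached 1 CPM, were Tppp3, Klk6, Mtmr10, Zyx and E2f6, with Pearson r of 0.989 to 0.99. The libraries fall into the 4 groups, so r follows 4 group means and is given as a description without a test. Among the members, Cars1 had the highest r with Atf4 (0.825), followed by Ddit3 (0.665), while Trib3 (0.0778) and Atf5 (0.0579) had the lowest.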

How the data were processed

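Whole frontal cortex and cerebellum of Ctrl and Upf3b-KO mice were profiled in 16 libraries, grouped by their labels. Per the labels and the methods of the study, the authors removed ribosomal RNA, made SMART-Seq v4 PLUS libraries, sequenced read pairs, aligned them to GRCm39 with STAR 2.5.2b and ran RSEM. The values deposited are RSEM's expected counts of each transcript, not scaled for depth or length. RSEM divides shared reads among transcripts by a model, so values of similar isoforms depend on each other.

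Of 142435 transcripts, 141102 matched GENCODE vM39, which is not the release used by the authors, and were summed per gene. Transcripts of the members that are only in the newer release were not analysed here. A second Ddit3 identifier of 105 nt (at most 1.83 counts) was kept apart. BLAST of the main transcripts found 0 other genes with at least 200 bases at 90% identity. CPM were counts scaled by the library total. A mean over n = 3 leaves out the library with 64981 counts.

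Rounded counts were tested in R 4.3.3 with edgeR 4.0.16 (filterByExpr, minimum count 10, TMM, glmQLFit and glmQLFTest, Benjamini-Hochberg over all features). A feature passed at an adjusted p under 0.05. Standard errors were the absolute log2 fold change over the square root of F. The interaction of tissue and genotype and the comparison of Ctrl regions used 15 libraries, with no term for the mouse. Alternatives were DESeq2 1.42.0, median-of-ratios scaling, other filters, unrounded counts, a replicate block, limma 3.58.1 diffSplice and each library left out. A test against a 1.2-fold change (glmTreat) was chosen after seeing the data. Columns without a sample numbered 0.

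The members and all lists were chosen with earlier results of these data known. Named were all members; of each its most abundant transcript and others that passed; of each list up to 4 genes with the smallest adjusted p; and for Atf4 the 5 most similar genes. The floor of 3 counts and the 95% interval cover counting error only.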

Additional observations from a re-analysis of the deposited data

Results flagged for a closer look

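The genotype effect differed between the tissues for 4 members by the interaction test of edgeR, in which a negative value means a more negative effect in the cerebellum. The interaction was -2.02 (log2) for Trib3 (adjusted p = 8.62e-05), -1.49 for Atf3 (adjusted p = 0.00545), -0.92 for Sesn2 (adjusted p = 1.45e-10) and -0.37 for Chac1 (adjusted p = 0.0425), and 48% of all genes passed the same test. The Chac1 call was lost in 9 of the 15 fits that left out 1 library, with the replicate block (adjusted p = 0.0908) and with no filter on low counts (adjusted p = 0.157).

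Gadd45b was at 46.2 CPM in Cere Upf3b-KO replicate 1, the shallow library left out of the main comparisons, which is above the highest Cere Ctrl library (7.99 CPM). The value rests on 3 counts, with an exact 95% Poisson interval of 9.52 to 135 CPM that covers counting error only, and it equals the 46.2 CPM that 3 counts are worth in that library.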

How the results depend on the processing

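In the gene tests, calls depended most on the threshold. With a fold over 2 and p adjusted under 0.01, the counts of members passing became 0 in the frontal cortex, 3 in the cerebellum, 2 for the interaction and 3 for the Ctrl regions, and 0 and 2 for transcripts of the frontal cortex and cerebellum. Against a 1.2-fold change 5 passed in the cerebellum. Cerebellar transcripts gave 8 calls with DESeq2 and 3 with the shallow library added, where the share of all transcripts called went from 22.6% to 32.0% and 10.01%. Cerebellar isoform usage gave 1 with limma diffSplice, where the share over all transcripts went from 1.25% to 7.34%. Leaving out 1 library gave 5 to 6 members in the frontal cortex and 6 to 8 in the cerebellum, and 3 to 5 for the interaction. Values near 0 changed sign. Cars1 in the cerebellum became 0.0028 (minimum count 30), 0.0034 (shallow library) and 0.0063 (protein coding transcripts), and -0.0386 to 0.0327 without 1 library. The Atf5 interaction became 0.0222 (no filter), 0.0011 (shallow library) and -0.0846 to 0.117 without 1 library. Without 1 library the Asns interaction was -0.0559 to 0.011, Atf5 between Ctrl regions -0.0195 to 0.159, Gadd45b between Ctrl regions -0.11 to 0.0202, Trib3-201 in the frontal cortex -0.300 to 0.0976 and Cars1-202 in the cerebellum -0.0463 to 0.0217. Deviations of same-numbered libraries from their group means had r of -0.107 to 0.119, 1 of 14 over 0.1. With so small a spread within groups, these values cannot show whether same-numbered libraries share a mouse. With the replicate number as a block, the Chac1 interaction (-0.34, adjusted p = 0.0908) and Chac1-201 in the frontal cortex (-0.49, adjusted p = 0.0981) lost their calls, and no other call changed. Both were also lost with no filter (adjusted p = 0.157 and 0.127). Of the single-gene alternatives 993 kept direction and call, 31 lost the call, 9 gained it and 19 changed sign. Trib3 and Atf3 rest on few counts, which limits their precision.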

Other observations

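Immediate early genes, which neurons switch on within minutes of activity and which include dimer partners of the ATF family, were also read from a list. Of 14 in the frontal cortex, 9 rose and 2 fell, and of 13 in the cerebellum, 8 rose and 4 fell, with medians of 0.30 and 0.41 (log2). Fos was at 4.77 and 13.9 CPM in FC Ctrl and Upf3b-KO and at 5.72 and 18.7 CPM in the cerebellum (log2 1.47 ± 0.09 and 1.65 ± 0.08). Arc, a synaptic activity gene, rose by 1.45 ± 0.03 and 1.19 ± 0.05 on the log2 scale. Nr4a1, an orphan nuclear receptor gene, rose (0.56 ± 0.04 and 0.41 ± 0.10), whereas Jun fell in both tissues (-0.38 ± 0.03 and -0.61 ± 0.04).

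Relatives of the members showed changes of their own in edgeR's test. Sesn1, the sestrin induced by p53, was at 151 and 99.9 CPM in Cere Ctrl and Upf3b-KO (log2 -0.64 ± 0.03), and Sesn3 fell in both tissues (-0.29 ± 0.03 and -0.54 ± 0.03). Trib1, a tribbles pseudokinase like Trib3, fell in the cerebellum (-0.73 ± 0.09) and did not pass in the frontal cortex (0.04 ± 0.08). Gadd45g rose in the frontal cortex (0.53 ± 0.07). Over the 8 relatives listed, 1 rose and 3 fell in the frontal cortex and 1 rose and 4 fell in the cerebellum.

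In the frontal cortex, 14 of 15 male germ cell markers were higher in Upf3b-KO, with sums of 34.4 to 38.1 CPM in Ctrl and 271.7 to 281 CPM in Upf3b-KO. In the cerebellum 10 of the 12 tested were also higher, with a median of 3.17 (log2) over the 12, and 1 was lower. The lower one was Sycp1, named here after its values were seen, which was at 28.4 CPM in Cere Ctrl and 9.53 CPM in Cere Upf3b-KO, so that the sums were 32.6 to 34.3 CPM and 31.7 to 33.7 CPM. In the cerebellum 5 of 5 blood markers rose, with sums of 1255 to 1325 CPM and 2402 to 2451 CPM, while in the frontal cortex all 5 fell, with sums of 489 to 504 CPM and 422 to 433 CPM. Their part in the values of the members was not tested.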
